A study of Rattus norvegicus with 12 samples.

Results

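Map2, Dlg4 and Ppp2r2b are genes best known from neurons, and their transcripts were measured here in rat synovium, the membrane that lines the joint. The 3 genes are among 29 catalogue probes that carry a gene symbol on an array of 38804 probes, and they were picked by probe name for what they encode, with their signals on all 12 arrays already known. The levels below are therefore a description and carry no test. The Map2 probe (A_44_P111897) was designed on NM_013066, the Dlg4 probe (A_44_P238314) on NM_019621 and the Ppp2r2b probe (A_44_P242397) on NM_022209, and each was printed as 10 spots on every array. The synovium came from male rats in 3 groups of 4: normal animals (Control), animals with collagen-induced arthritis (CIA), a model of rheumatoid arthritis, and CIA rats treated with Bi Zhong Xiao Decoction (BZXD), a herbal preparation. The labels give no strain, age, dose, time or immunisation scheme, and no group that received a vehicle. They do not say that the rats of a group were reared or treated apart. The arrays of a group may therefore not be independent, and the standard errors may be too small. The spread within a group may also in part be technical.

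Map2 encodes a microtubule-associated protein that bundles and stabilises microtubules in the cell body and dendrites of neurons, and it serves as a standard dendrite marker. Dlg4 encodes PSD-95, a scaffold with PDZ domains that anchors glutamate receptors and other proteins at the postsynaptic density of excitatory synapses. Ppp2r2b encodes a B-family regulatory subunit of protein phosphatase 2A, enriched in brain, which helps to decide which substrates the phosphatase acts on. Joint tissue holds nerve fibres, but the cell bodies of its sensory neurons lie in the dorsal root ganglia, and these transcripts can also come from cells that are not neurons. In such bulk tissue fewer cells of a type and less RNA per cell cannot be told apart.

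The upstream windows of Map2 and Dlg4 are shown because these were the members that lay lower together in the arthritic group. They are the 250 bases before the listed start in the RefSeq table of rat build GRCr8, both on the plus strand, at chr9:75346440-75346689 for Map2 and chr10:55239534-55239783 for Dlg4, with every CpG in capitals.
Map2: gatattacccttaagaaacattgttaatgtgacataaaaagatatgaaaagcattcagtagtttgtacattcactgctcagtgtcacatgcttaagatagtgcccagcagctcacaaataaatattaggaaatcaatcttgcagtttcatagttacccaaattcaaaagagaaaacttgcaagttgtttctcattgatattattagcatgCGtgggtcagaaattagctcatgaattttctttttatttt
Dlg4: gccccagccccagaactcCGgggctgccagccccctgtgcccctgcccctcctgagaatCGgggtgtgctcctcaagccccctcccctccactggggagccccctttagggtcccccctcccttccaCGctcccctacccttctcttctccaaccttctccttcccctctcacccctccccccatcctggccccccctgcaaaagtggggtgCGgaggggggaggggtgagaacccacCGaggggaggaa
The windows differ widely in composition. The Map2 window is 32.0% G or C with 1 CpG, and 2.88% of the 33469 rat windows of this length have a lower GC content. The Dlg4 window is 69.2% G or C with 5 CpGs, and 90.8% of windows have a lower GC content. Neither holds, on either strand, the GC box GGGCGG (in 30.5% of windows), the TATA box TATAAA (12.9%), or TTCAGCACC (0.305%) and GGACAGC (5.30%), which are parts of the RE1 element bound by the neuronal gene repressor REST. These are descriptions of the letters in the windows. The sequences of the array probes themselves are not used here.

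The arrays differed in brightness by group, and this bears on every value. The array's 75th percentile of intensity was 54.3 to 69.6 in Control, from 91.1 to 118 in CIA and from 24.7 to 32.7 in BZXD, so levels are given as log2 intensity minus the 75th percentile of the same array. Well above background, the scanner software's own call, held for 65.0% to 77.6% of probes on the Control arrays, 68.6% to 81.5% on the CIA arrays and 43.6% to 53.1% on the BZXD arrays. Each group was scanned in a run of its own, so the scan run and the group cannot be told apart. BZXD replicate 2 stood apart from the rest of its group at 2 of the 3 genes, and results that rest on it are given with and without it. Of 45 marker genes of 8 cell types, neurons, Schwann cells and synovial fibroblasts among them, 0 have a named probe, so the tissue label could not be checked against markers. No signal was saturated.

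Map2 was clearly measured in normal and arthritic synovium and was not well above background after the decoction. In Control its level was -0.80, -0.89, -1.05 and -0.96 on replicates 1 to 4. In CIA it was -1.44, -1.14, -1.61 and -1.41. In BZXD it was -4.04, -4.19, -4.42 and -4.59. Every CIA array thus lay below every Control array, by a narrow margin of replicate 2 of CIA from replicate 3 of Control, and every BZXD array lay far below both.

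The single spots of Map2, which are repeats on the same arrays, also set BZXD apart. Before scaling they did not put CIA below Control. Of the spots not marked as outliers, 40 of 40 in Control and 38 of 38 in CIA were well above background, against 0 of 37 in BZXD, where 17 of 37 were still called positive and significant against the local background. Converted back to intensity, the array means ran from 26.2 to 39.2 in Control, from 29.8 to 53.4 in CIA and from 1.13 to 1.79 in BZXD. The faintest probes called well above background on the BZXD arrays had intensities of 3.86 to 4.39. The raw brightness of the Map2 spots in BZXD, 18.7 to 21.2, stood little above the 16.2 to 17.2 of the local background around them. In Control it was 48.1 to 62.6 over a background of 18.2 to 19.6. The BZXD levels of Map2 therefore sit at the bottom of the measurable range, and their order among themselves carries no information.

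**Figure D1:**
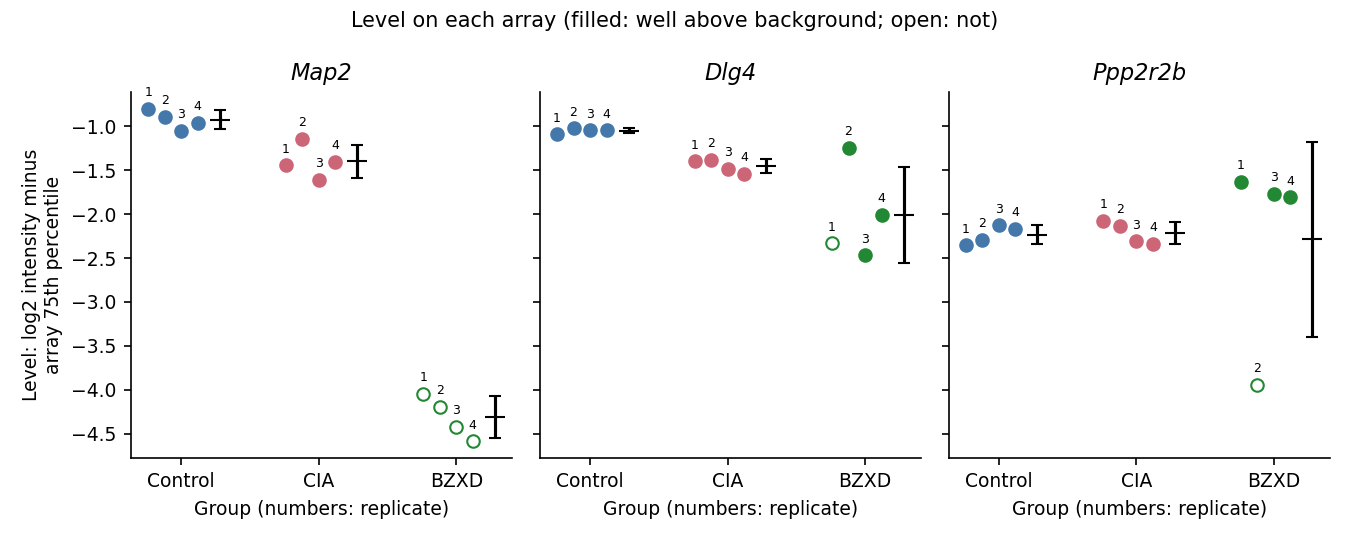
Level of Map2, Dlg4 and Ppp2r2b on each of the 12 arrays, as log2 intensity minus the array's 75th percentile, with points numbered by replicate, filled where the probe was well above background, and bars for the mean ± SD of 4 arrays. Map2 lies between -4.59 and -4.04 on the BZXD arrays with 4 open points, while BZXD replicate 2 is the highest BZXD point for Dlg4 and the lowest for Ppp2r2b.

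The Map2 mean was -0.93 ± 0.11 for Control, -1.40 ± 0.19 for CIA and -4.31 ± 0.24 for BZXD (SD, n = 4). The order was thus Control, CIA, BZXD. CIA minus Control was -0.48 ± 0.16 on the log2 scale (SE from the limma fit of 12 arrays, or ± 0.12 from the 8 arrays of these groups alone), where the median over all kept probes was -0.08 and 13.04% of probes had a lower difference. Every CIA array was lower than every Control array at 15.6% of the probes tested and higher at 5.50%, so a gap of this kind in this direction was common. With each array's median in place of its 75th percentile these shares were 8.34% and 9.21%, with quantile normalization 12.8% and 7.38%, and with a normexp background correction and an offset of 50 they were 49.5% and 4.97%. The Map2 groups overlapped in 3 of the 8 other settings run, those with median scaling (-0.36), quantile normalization (-0.46) and no scaling. With no scaling at all Map2 was higher in CIA, by 0.25, against a median of 0.65 over all probes. The lower Map2 level in CIA is therefore a level relative to the other probes of an array, since the unscaled CIA arrays were brighter.

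Against BZXD the size of the Map2 difference can only be bounded. For this the dim side was set, on each array, to the faintest signal called well above background. On the scaled levels given above, Map2 was then at least 2.63-fold lower in BZXD than in CIA. Against Control it was at least 3.66-fold lower. The fitted differences of these levels, -2.91 and -3.38 on the log2 scale, rest on BZXD signals near zero. The bounds, 1.40 and 1.87 on the log2 scale, hold for that scaling and background correction only. Normexp without an offset gave smaller gaps, with differences of -1.26 from CIA and -1.63 from Control. Every BZXD array was lower than every CIA array at 43.9% of probes and higher at 21.8%, and against Control at 46.7% and 21.8%. With median scaling the last 2 shares were 34.8% and 27.3%, and under the offset correction the lower and higher shares were 18.5% and 57.3% against CIA and 20.02% and 45.5% against Control. With no filter on dim probes BZXD was lower at 35.7% and higher at 26.3% against CIA, and at 38.4% and 24.5% against Control. Among the 12220 probes called on every array, which exclude Map2, BZXD was lower at 31.1% and higher at 34.1% against CIA. Against Control these shares were 32.0% and 34.5%. The Map2 probe was thus on the side where a large part of the kept probes lay, but among the 12220 that side was not the larger. Of the kept probes, 4.78% had a lower difference against CIA and 2.55% against Control. Map2 passed the filter through Control and CIA arrays alone, which favours low BZXD values. Its place among the kept probes therefore does not show that it was unusual. Map2 stayed without overlap and lower in BZXD than in Control in all 8 other settings of scaling, background and spot averaging that were run, and lower than in CIA in 7. In the eighth, the correction with an offset of 50, which exceeds the Map2 intensity on all arrays but 1, the groups overlapped and the difference turned to 0.12.

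**Figure D2:**
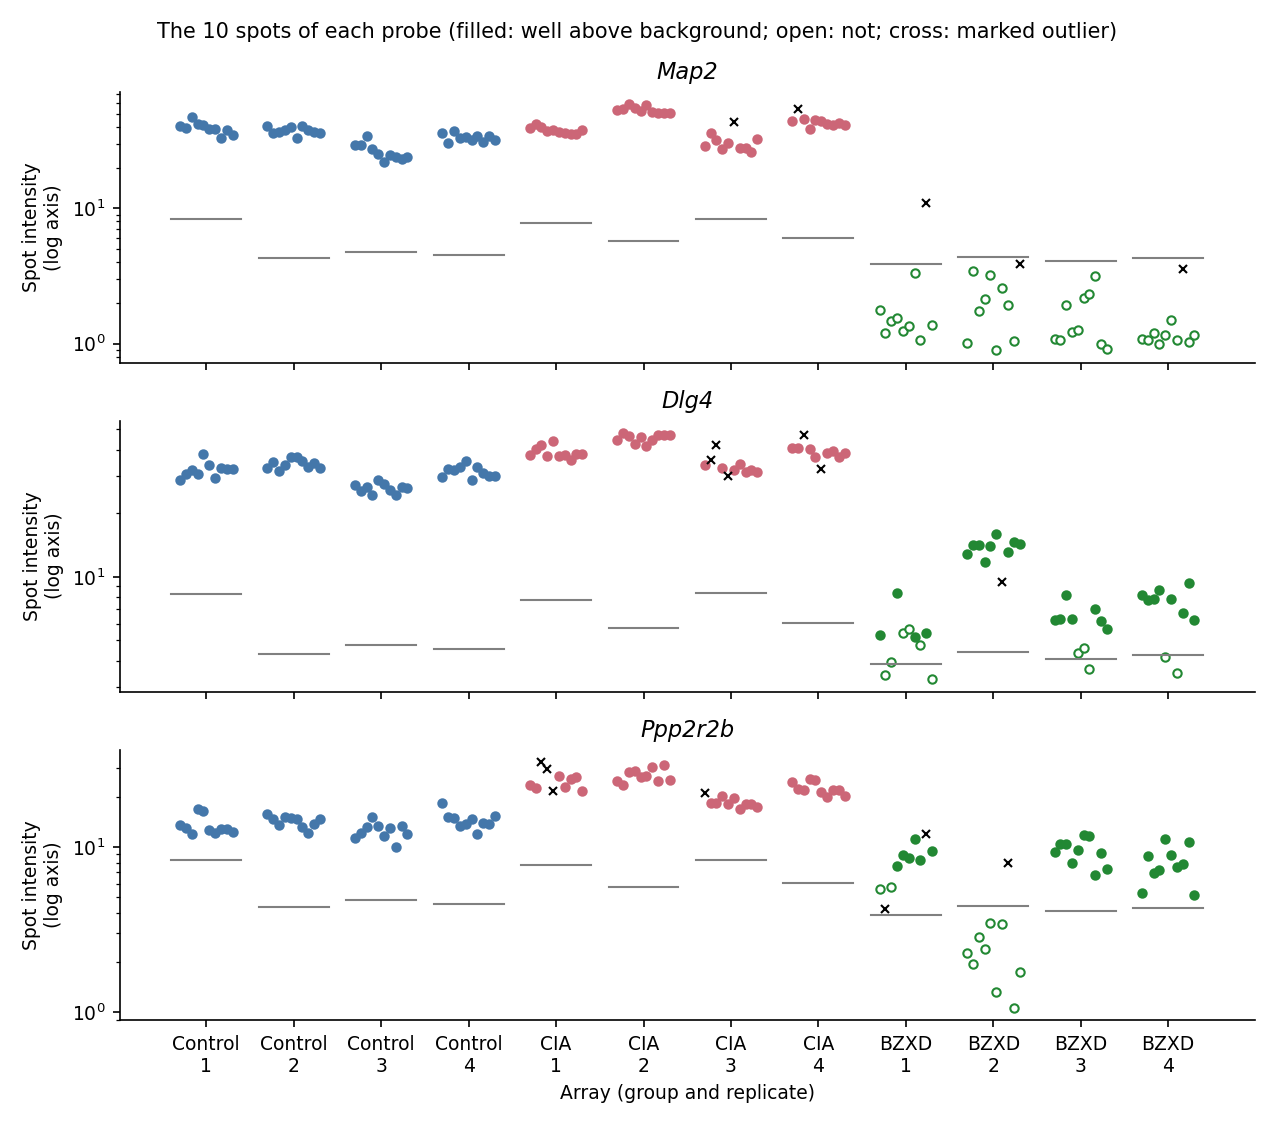
Intensity of each of the 10 spots of the Map2, Dlg4 and Ppp2r2b probes on the 12 arrays (log axis), filled where the spot was well above background, open where not, and crossed where marked as an outlier. The grey line is the lowest probe intensity called well above background on that array. Map2 spots lie below it on the BZXD arrays apart from 1 marked spot. Most Dlg4 spots lie above it on BZXD replicates 1, 3 and 4, with a few below. Ppp2r2b spots lie below it on BZXD replicate 2 apart from 1 marked spot.

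Dlg4 gave the tightest values of the 3 genes in normal and arthritic rats. In Control its level was -1.09, -1.02, -1.05 and -1.04 on replicates 1 to 4. In CIA it was -1.40, -1.38, -1.48 and -1.54. In BZXD it was -2.33, -1.24, -2.47 and -2.01. The Control and CIA arrays formed separate bands, and BZXD replicate 2 lay above the CIA band while the other BZXD arrays lay below it.

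The Dlg4 mean was -1.05 ± 0.03 for Control, -1.45 ± 0.08 for CIA and -2.01 ± 0.55 for BZXD (SD, n = 4). CIA minus Control was -0.40 ± 0.23 on the log2 scale with the shared spread of 12 arrays, or ± 0.07 with that of the 8 arrays compared, and 17.4% of probes had a lower difference. The groups stayed apart, with CIA lower, in 7 of the 8 other settings, the difference being -0.29 with median scaling. With no scaling it was 0.33, that is, higher in CIA, and the groups overlapped. Over all probes the median difference was -0.08, and every CIA array was lower than every Control array at 15.6%. This share was 8.34% with median scaling, 12.8% with quantile normalization and 49.5% with the offset of 50. Array intensities ran from 26.3 to 34.2 in Control and from 32.6 to 45.4 in CIA, and 40 of 40 and 35 of 35 unmarked spots were well above background.

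In BZXD Dlg4 remained partly measurable. The call well above background held on 3 of 4 arrays and at 28 of 39 unmarked spots, and 39 of 39 were positive and significant. By array these were 4 of 10 spots on replicate 1, 9 of 9 on replicate 2, 7 of 10 on replicate 3 and 8 of 10 on replicate 4. BZXD minus Control was -0.96 ± 0.23 without overlap, as BZXD was lower at 46.7% of probes. The median over all probes was -0.69, and 43.9% of probes had a lower difference. The groups overlapped in 3 of the 8 other settings, those with median scaling (-0.50), quantile normalization (-0.70) and the offset of 50. BZXD minus CIA was -0.56 ± 0.23 with overlap, against a median of -0.60. It was lower without overlap in 3 of the 8 other settings (no scaling, normexp without an offset, and all spots averaged) and higher in 1, the offset of 50. The Dlg4 difference from CIA was thus close to that of the middle probe of the array. Without BZXD replicate 2 they were -1.22 and -0.82, against medians of -0.66 and -0.55, and every remaining BZXD array was then lower than every CIA array, as at 48.4% of probes.

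Replicate 2 of BZXD was the bright exception for Dlg4. Its Dlg4 intensity was 13.8, against 4.91, 5.71 and 6.73 on replicates 1, 3 and 4. Its spots agreed among themselves, with an SD over spots of 0.12 on the log2 scale against 0.35 to 0.47 on the other BZXD arrays, and the lowest unmarked spot, at 11.8, exceeded the highest spot of each other BZXD array, at most 9.35. Under the offset correction Dlg4 was higher in every BZXD array than in every CIA array, by 0.27 on average, as 57.3% of probes were, but below the median of 0.45 over all probes. It differed from Control by -0.0097, where that median was 0.23.

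Ppp2r2b did not differ between normal and arthritic rats beyond the spread. In Control its level was -2.35, -2.29, -2.13 and -2.17 on replicates 1 to 4. In CIA it was -2.08, -2.13, -2.31 and -2.34. In BZXD it was -1.63, -3.94, -1.77 and -1.81. Control and CIA covered the same range, 3 BZXD arrays lay just above it, and BZXD replicate 2 lay far below.

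Ppp2r2b averaged -2.23 ± 0.11 in Control and -2.21 ± 0.13 in CIA (SD, n = 4 each), a difference of 0.02 ± 0.42, or ± 0.10 from the 8 arrays compared. All 40 unmarked spots in Control and all 36 in CIA were well above background. The raw array intensities went the other way from the levels of the other 2 genes after scaling: they ran from 12.4 to 14.4 in Control and from 18.4 to 26.9 in CIA, without overlap and 0.75 higher on the log2 scale, close to the 0.65 by which the middle probe of the CIA arrays was brighter. Under the offset correction every CIA array was lower than every Control array, by 0.21, as at 49.5% of probes. The median over all probes was then -0.18, so Ppp2r2b lay close to the middle probe.

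In BZXD the Ppp2r2b mean was -2.29 ± 1.11 (SD, n = 4), and the differences from CIA and Control were -0.07 ± 0.42 and -0.05 ± 0.42. Their sign depended on the setting: median scaling gave 0.27 and 0.40 and quantile normalization 0.28 and 0.44, with overlap, and the offset of 50 gave 0.52 and 0.31 without overlap, against medians of 0.45 and 0.23 over all probes. These means hide a split within the group. Without BZXD replicate 2 the mean was -1.74 ± 0.09 (SD, n = 3), which is 0.48 above CIA and 0.50 above Control, and every remaining BZXD array was higher than every CIA array, as at 29.1% of probes, and higher than every Control array, as at 29.3%. The intensities of these 3 arrays were 7.97, 9.28 and 7.72, below every Control and CIA array before scaling, so that the higher level appears once the dim BZXD arrays are scaled. Without scaling the 4 BZXD arrays differed by -1.95 from CIA and by -1.20 from Control, where the middle probe differed by -2.47 and -1.84.

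On BZXD replicate 2 Ppp2r2b was not well above background. Its intensity was 2.13, 0 of 9 unmarked spots were well above background, and 8 of 9 were positive and significant. The spots ran from 1.06 to 3.46, and the lowest unmarked spot on each other BZXD array was at least 5.12. This array thus had the highest Dlg4 and the lowest Ppp2r2b level of its group, and Map2 gave no order within the group. Outlier marks covered 3.29% of its spots, against 0.823% to 2.02% on the other BZXD arrays; whether this has a part in its values was not tested.

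The ratio of 2 probes on the same array does not depend on a single scale factor per array, so it shows whether the genes changed unequally. Map2 over Dlg4 was 0.13 ± 0.13 in Control and 0.05 ± 0.17 in CIA on the log2 scale (SD, n = 4 each), and the groups overlapped. Dlg4 over Ppp2r2b was 1.18 ± 0.10 in Control and 0.76 ± 0.06 in CIA, from 1.08 to 1.27 and from 0.68 to 0.82. Map2 over Ppp2r2b was 1.31 ± 0.21 and 0.81 ± 0.17, from 1.07 to 1.55 and from 0.64 to 0.99. Both ratios to Ppp2r2b were therefore lower on every CIA array than on every Control array, by 0.42 ± 0.06 and 0.49 ± 0.14 (SE from the group SDs), whereas that of Map2 to Dlg4 differed by -0.08 ± 0.10. Map2 and Dlg4 were thus lower relative to Ppp2r2b in arthritic synovium by any scale factor per array, and this does not say which of the 3 changed. How many other pairs of probes part the groups in this way was not counted. Single probes did so at 15.6%, with CIA lower, and at 5.50%, with CIA higher. Quantile normalization, which does not use a single factor per array, gave -0.62 for Map2 and -0.54 for Dlg4 over Ppp2r2b, without overlap. The ratios also depend on the signal and background correction used. Normexp, which starts from the raw median signal, gave -0.43 for Map2 and -0.36 for Dlg4 without an offset. With the offset of 50 they were -0.09 and -0.06. Under normexp the groups overlapped in each but that of Dlg4 without an offset.

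**Figure D3:**
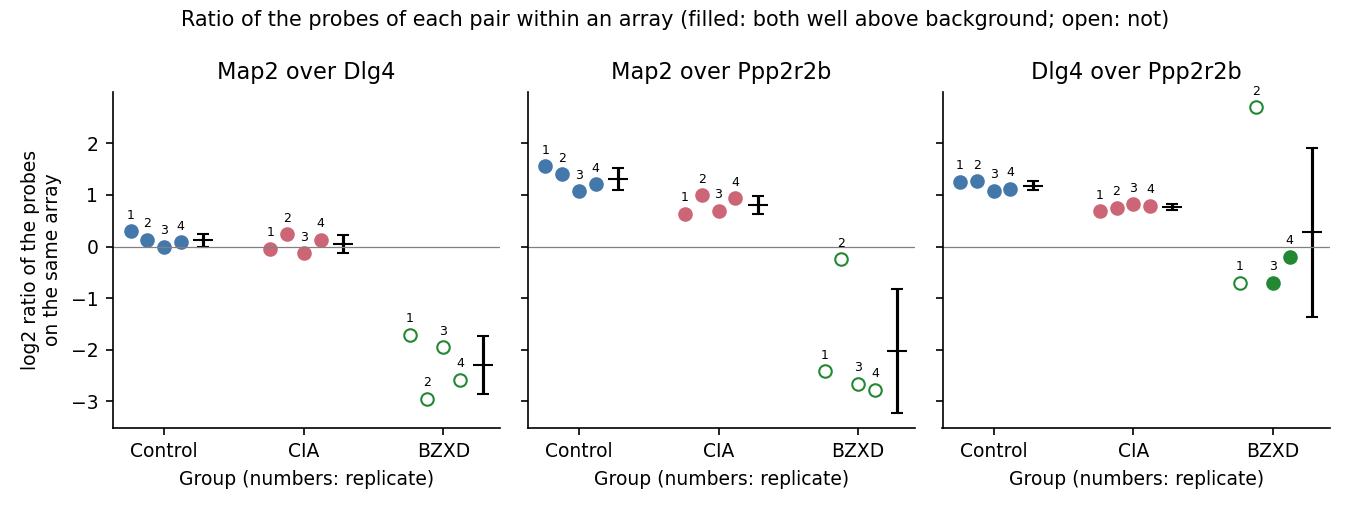
log2 ratio of each pair of probes on the same array, for 4 arrays per group, numbered by replicate, filled where both probes were well above background, with the mean ± SD. Dlg4 over Ppp2r2b lies between 1.08 and 1.27 in Control and between 0.68 and 0.82 in CIA, and BZXD replicate 2 lies at 2.70 where the other BZXD arrays lie between -0.70 and -0.20.

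In BZXD Map2 over Dlg4 was -1.71, -2.95, -1.95 and -2.58 on replicates 1 to 4. All 4 lay below the -0.13 to 0.24 of CIA and the -0.01 to 0.29 of Control. Since Map2 was not well above background there, these are at the floor of the array. Dlg4 over Ppp2r2b was -0.70, 2.70, -0.70 and -0.20. The 3 arrays other than replicate 2 lay below every Control and CIA array, and replicate 2 lay above all of them. Ppp2r2b was not well above background on replicate 2, nor Dlg4 on replicate 1, so these 2 ratios are set in part by the floor. Map2 over Ppp2r2b was -2.41, -0.25, -2.65 and -2.78. Map2 was at the floor in all 4, and on replicate 2 both probes were, so that value has no place relative to the other groups.

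Few relatives of the 3 genes can be read on this array. Of 38 microtubule-associated, synaptic scaffold and phosphatase 2A genes listed, 3 have a named probe, and these are the 3 members. Of 12 further genes of neurons or neural signalling, 5 have one. Cdh2 (N-cadherin) and Gdnf, a survival factor for neurons, were well above background on 0 of the 12 arrays. P2rx2, an ATP-gated channel of sensory neurons, averaged -2.65 ± 0.11, -2.82 ± 0.15 and -4.33 ± 0.29 in Control, CIA and BZXD (SD of 4 arrays). Trim2, a ubiquitin ligase, averaged -3.32 ± 0.11, -3.31 ± 0.13 and -4.66 ± 0.22, and Ptk2b, a calcium-responsive kinase, -3.37 ± 0.07, -2.94 ± 0.24 and -3.59 ± 0.57. Of these 3 that passed the filter on dim probes, 0 were lower and 1, Ptk2b, was higher without overlap in CIA than in Control, where 15.6% of all probes were lower and 5.50% higher, with a median difference of 0.01 against -0.08 over all probes. In BZXD P2rx2, Trim2 and Ptk2b were each well above background on 0 of 4 arrays, as was Map2, so their differences from BZXD are taken against the floor. There 2 of 3, P2rx2 and Trim2, were lower without overlap than in CIA and than in Control, as 43.9% and 46.7% of all probes were. The medians of the 3 were -1.34 and -1.33, where all probes had -0.60 and -0.69. These 3 genes passed the filter through Control and CIA arrays alone, which favours low BZXD values. The count and medians therefore say nothing about neural genes in BZXD. Cdh2 and Gdnf, which failed the filter, went otherwise, at the floor in every group. Cdh2 was higher without overlap in BZXD than in CIA and in Control, as were 26.3% and 24.5% of probes with no filter on dim probes. Gdnf overlapped both.

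The named genes whose pattern over the 12 arrays was most like that of each member were found from the root mean square difference between their levels after centring. For Dlg4 they were Med16, a Mediator subunit, at 0.23 on the log2 scale, and Ndfip1, an adaptor of ubiquitin ligases, at 0.29. All probes but 0.689% and 2.06% were farther from Dlg4 than these. Both genes share the high BZXD replicate 2 of Dlg4, which their choice by likeness over the same arrays favours. Med16 was at -2.06 there and between -3.47 and -3.17 on the other BZXD arrays. Ndfip1 was at 1.15 there and between 0.07 and 0.27 on the others. Med16 was well above background on 1 of 4 BZXD arrays. For Map2 they were Cyp2e1, a cytochrome P450, at 0.71, and Odf2l, a centrosome-related gene, at 0.73, with 17.3% and 18.9% of probes closer. For Ppp2r2b they were Trim2 at 0.76 and Pdk3, a pyruvate dehydrogenase kinase, at 0.76, with 25.5% and 25.7% of probes closer. Cyp2e1, Odf2l and Trim2 were well above background on 0 of 4 BZXD arrays and Pdk3 on 1, so these likenesses rest in part on floor values. The comparison covers the 17 named genes that passed the filter and is a description over arrays that share group and brightness.

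**Figure D4:**
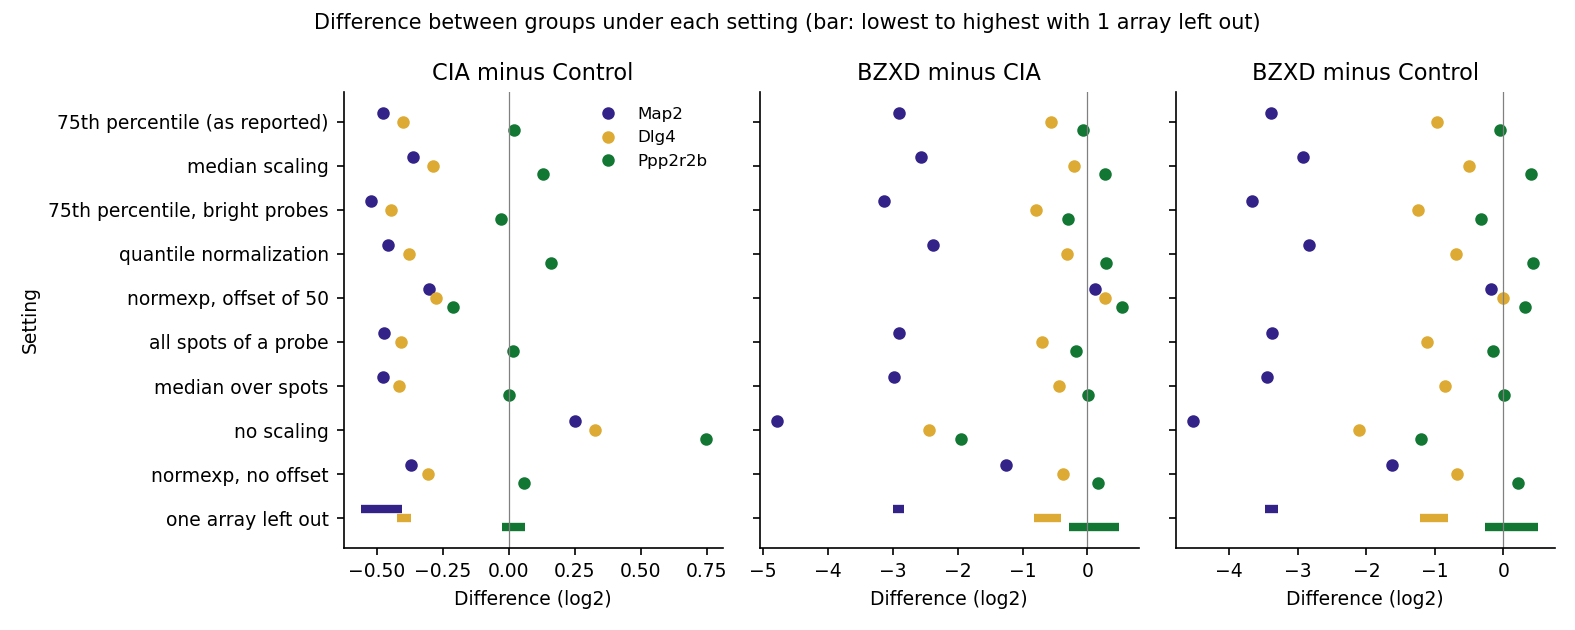
Difference between groups (log2) for the 3 genes under each scaling, background and spot setting, with bars from the lowest to the highest value with 1 array left out. The CIA minus Control differences of Map2 and Dlg4 lie below 0 except without scaling, where they are 0.25 and 0.33, and those of Ppp2r2b lie on both sides of 0 in each comparison.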

How the data were processed

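RNA from synovium of 12 rats, 1 array each, was hybridised in 1 colour (Cy3). The authors used Agilent Feature Extraction 11.0.1.1, per the file headers, and its output gives each spot a background-subtracted intensity and yes or no calls. Groups and replicate numbers come from the titles. The genes and lists were chosen with earlier results of these data known.

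Intensities were converted to log2, unmarked spots of a probe were averaged, and the array's 75th percentile over non-control probes was subtracted. A probe was well above background on an array where at least 50% of its unmarked spots were. The 31288 of 38804 probes with this on at least 4 arrays were kept, the 3 members among them: Map2 passed on 8 arrays, Dlg4 and Ppp2r2b on 11 each. Differences and standard errors come from limma 3.58.1 (R 4.3.3), fitted to all kept probes with a mean per group, checked on simulated data. Shares without overlap use kept probes with a value on every array compared. The rule for named genes took the members, the 2 likest named genes each, and measured genes of the lists. Symbols came from RefSeq (GRCr8); the file headers name rn4, so gene coordinates were not taken from it apart from the windows shown. Precision is limited by 4 arrays per group.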

Additional observations from a re-analysis of the deposited data

Results flagged for a closer look

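Dixon's ratio, the gap of the farthest array over the range of its group, was taken for 9 groups of 4 levels (3 genes in 3 groups) and is given as a description, since the genes were chosen with these levels known. In 1 group it was above the usual 95% mark, which chance passes in about 1 in 20 groups. It was Ppp2r2b in BZXD, where replicate 2 stood at -3.94 and the other arrays between -1.81 and -1.63, a ratio of 0.923. Ppp2r2b was not well above background on that array, so its distance from the others is not measured exactly. The other 8 ratios were under the mark, the highest being 0.671 for Dlg4 in Control and 0.623 for Dlg4 in BZXD.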

How the results depend on the processing

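Each setting changed 1 choice, except that normexp with an offset of 50 changed the background correction and the offset together. With 1 array left out at a time, CIA minus Control ran from -0.56 to -0.41 for Map2, -0.42 to -0.37 for Dlg4 and -0.03 to 0.06 for Ppp2r2b. BZXD minus CIA ran from -2.998 to -2.82, -0.82 to -0.41 and -0.29 to 0.48, and BZXD minus Control from -3.47 to -3.29, -1.22 to -0.81 and -0.27 to 0.50. In both BZXD comparisons Ppp2r2b was above 0 without BZXD replicate 2 and below 0 with any other array left out. The differences kept their direction under median scaling and quantile normalization for Map2 and Dlg4. Median scaling gave -0.29 for Dlg4 (CIA minus Control), and for Map2 -2.56 (BZXD minus CIA) and -2.93 (BZXD minus Control). Quantile normalization gave 0.16 for Ppp2r2b (CIA minus Control), and for Map2 -2.38 and -2.83 against BZXD. The 75th percentile over the 12220 probes called on every array gave -3.66 for Map2 (BZXD minus Control).

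Normexp with an offset of 50 turned Map2 (BZXD minus CIA) to 0.12. It also gave -0.18 for Map2 (BZXD minus Control), -0.28, 0.27 and -0.0097 for Dlg4 in the 3 comparisons as ordered above, and -0.21 for Ppp2r2b (CIA minus Control). The settings without scaling and without offset were chosen after seeing the data. No scaling turned CIA minus Control to 0.25 for Map2 and 0.33 for Dlg4 and gave 0.75 for Ppp2r2b. BZXD minus CIA was then -4.78, -2.44 and -1.95, and BZXD minus Control -4.53, -2.11 and -1.20. Normexp without an offset gave -0.31 for Dlg4 (CIA minus Control) and -1.26 and -1.63 for Map2 against BZXD. Measured from the middle probe under the same setting, Map2 lay lower in every comparison and setting of this paragraph.

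The share of probes without overlap moved by over 1.5 times under the following settings. Over those 12220 probes BZXD was higher at 34.1% against CIA and 34.5% against Control. The lower shares there, 31.1% and 32.0%, moved less. Median scaling gave 9.21% higher and 8.34% lower for CIA against Control. Normexp with the offset gave 49.5% lower for CIA, and for BZXD 57.3% higher and 18.5% lower against CIA and 45.5% higher and 20.02% lower against Control. With 1 array left out, 1 moved that far, CIA higher than Control without CIA replicate 3. CIA was higher at 6.10% to 9.93% and lower at 16.9% to 20.8%. BZXD was higher than CIA at 22.0% to 29.1% and lower at 44.1% to 48.4%, and BZXD higher than Control at 21.9% to 29.3% and lower at 47.1% to 51.3%. A group with 1 array left out meets the condition of no overlap more easily at the same probes. What else had a part in these shifts was not tested.

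With the replicate number as a block the differences were the same, for example -0.48 for Map2 (CIA minus Control), with a standard error of 0.15 in place of 0.16. Same-numbered arrays share only a number: over all kept probes, the correlation of their deviations from the group mean ran from -0.13 to 0.55 in 12 pairs, and 6 of 12 arrays were closest to their own number. The deposited value table lists 0 of the 3 probes, so its values could not be set beside these.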
